A study of Spodoptera frugiperda with 3 samples.

Results

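A group of 84 unigenes was higher in Sf9 cells with Sf-15 repression and lower in cells with Sf-15 overexpression than in normal Sf9 cells. A unigene is a transcript sequence assembled from the reads without a genome. The 84 were taken from 13858 eligible unigenes, out of 42041 in the assembly. Eligible were the unigenes with a name starting in Unigene, thus outside the contig clusters (CL), with at least 50 raw fragments in 1 or more libraries and an FPKM under 100 in Sf9. FPKM relates the fragments of a unigene to its length in kilobases and to the depth of the library in M (mega) mapped fragments. The members were chosen by the measured values themselves. After 1 FPKM was added to each library, the log2 ratio of ASO to Sf9 had to be at least 0.4 and that of Sf-15 to Sf9 at most -0.5. Both directions are therefore set by the choice and are described here without a test.

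Sf9 is a continuous cell line from the ovary of the fall armyworm *Spodoptera frugiperda*, and the cells were at passage 15 to 18. The Sf9 library came from cells described as normal, with no transfection given. For the ASO library, cells received an antisense oligonucleotide against Sf-15, and for the Sf-15 library a plasmid with an EGFP reporter in which the *actinA3* promoter drives Sf-15. The sample labels write Bm-15, the silkworm name, and give a dose of 2 μg for plasmid or oligonucleotide. The paper's methods give 2 μg for the plasmid only and state the oligonucleotide dose as a concentration. Each condition had 1 library, so the spread between cultures is unknown. Since no mock-transfected library was used here, transfection and the change of Sf-15 cannot be told apart in either ratio to Sf9.

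Sf-15 is a C/D box small nucleolar RNA (snoRNA). RNAs of this class pair with ribosomal or small nuclear RNA and guide the methyltransferase fibrillarin to a ribose there, and some of them have been linked to the splicing or the level of mRNAs. An antisense oligonucleotide that binds its target in the nucleus directs RNase H to cut it, which is why this tool suits a snoRNA. The unigenes carry names of this assembly only. That 0 of the 84 names matched the RefSeq gene table of *S. frugiperda* follows from this naming and does not mean that the members lack a known gene. No gene name or function is given here for a member, the cell line was not checked against marker genes, and the level of Sf-15 itself was not analysed here.

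The libraries held 19.6 M, 19.7 M and 18.0 M fragments in Sf9, ASO and Sf-15, respectively. The 3 contigs of cluster CL1590 took 2.01%, 13.5% and 21.1% of the fragments of these libraries. FPKM is scaled to all fragments, so with the rest unchanged a larger share for these contigs lowers the FPKM of every other unigene. The part of this in the ratios to Sf9 was not tested. The median log2 ratio of the eligible unigenes was -0.05 for ASO to Sf9 and -0.26 for Sf-15 to Sf9. The limit of -0.5 thus lay closer to the median of its comparison than the limit of 0.4 did.

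Among the eligible unigenes, 21% were past the limit for ASO and 25.1% past the limit for Sf-15. Both limits were passed by 0.606%, which are the 84 members. The ratios share the Sf9 library, so a deviation of Sf9 moves both in the same direction. When the median ratio of the eligible unigenes was set to 0 in both comparisons, 17 unigenes passed, or 0.123%. Of these 17, 14 were members, so 70 members did not pass with this setting. The other 3 had a ratio of ASO to Sf9 between 0.35, where this setting places the limit, and 0.4. They were Unigene12145, Unigene15651 and Unigene2561.

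**Figure D1:**
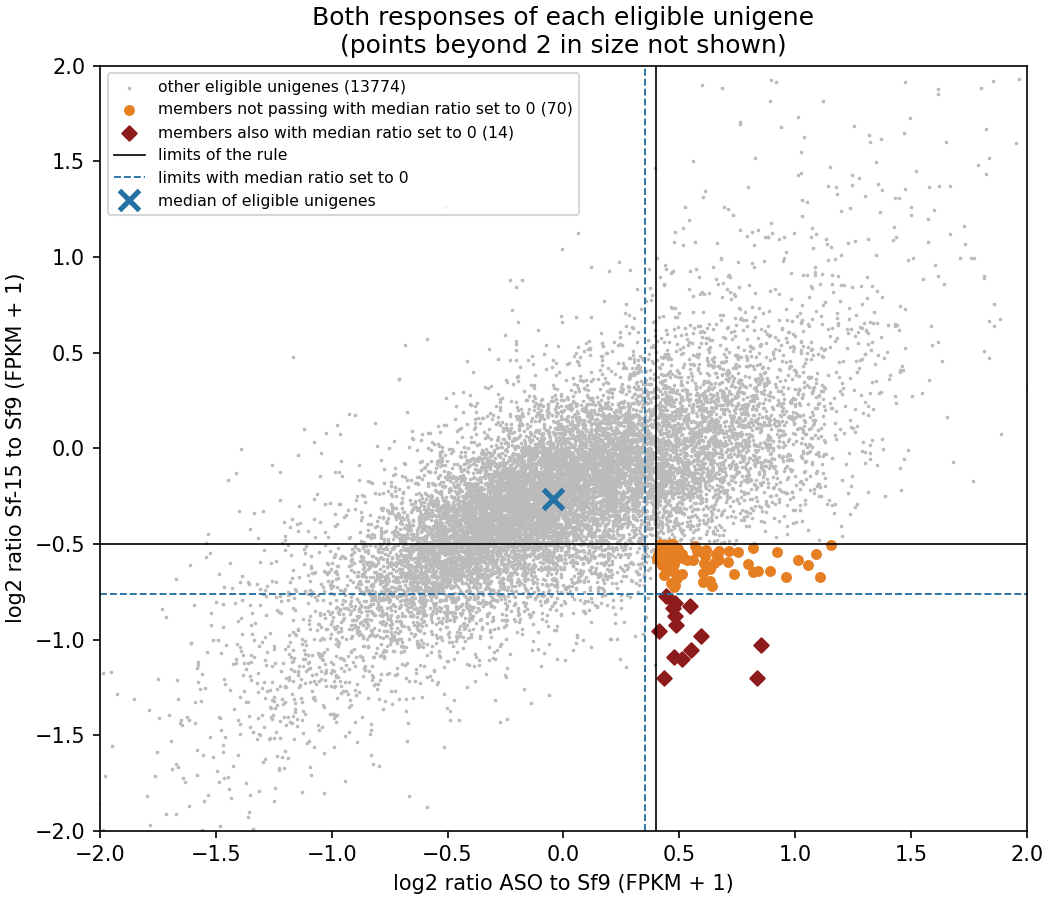
Log2 ratio of ASO to Sf9 (x axis) against log2 ratio of Sf-15 to Sf9 (y axis) for the eligible unigenes, both after adding 1 FPKM. Grey points are the 13774 other unigenes, orange circles the 70 members that did not pass with the median ratio set to 0, and dark red diamonds the 14 that did. The blue cross is the median of the eligible unigenes. Black lines are the limits of the rule and dashed lines the limits after centring. Within 0.1 of both limits lie 20 members.

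The members had a median log2 ratio of 0.51 for ASO to Sf9, with quartiles of 0.47 and 0.66 and a highest value of 1.15. For Sf-15 to Sf9 the median was -0.59, the quartiles were -0.68 and -0.55, and the lowest value was -1.20. Many members lay near the limits. The ratio of ASO to Sf9 was within 0.1 of its limit for 39 members, that of Sf-15 to Sf9 for 44, and both for 20. A log2 ratio of at least 1 for ASO to Sf9 was found for 5 members, against 3.48% of the eligible unigenes. A ratio of at most -1 for Sf-15 to Sf9 was found for 6, against 4.30%, and 0 members had both. The step from Sf9 down to Sf-15 was larger than the step up to ASO for 56 members and smaller for 28. This balance depended on the scaling, since with the median ratio set to 0 it was larger for 12 and smaller for 72.

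Between the transfected libraries, the log2 ratio of Sf-15 to ASO had a median of -1.20 over the members and -0.20 over all eligible unigenes. It was at most -1 for 73 members, against 3.07% of the eligible unigenes. This ratio follows from the same FPKM values as the limits, and nothing further is read from it. The median FPKM of the members was 3.48 upon overexpression, 6.17 in normal cells and 9.40 upon repression. Together their fragments made up 0.0229%, 0.0406% and 0.0644% of these libraries.

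The member with the largest difference between the ratios was Unigene16590, a unigene of 234 nt. It had 121 fragments in normal cells, 221 upon repression and 46 upon overexpression. These fragments gave an FPKM of 26.4, 47.8 and 10.9. Its log2 ratio was 0.83 for ASO to Sf9 and -1.20 for Sf-15 to Sf9, and the 95% intervals of its FPKM did not overlap between any of the 3 libraries. These intervals are exact Poisson intervals of the fragments and, like all intervals given here, they cover counting error only.

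The longest and most deeply covered member was Unigene19814, of 6243 nt. Its fragments numbered 1366 in normal cells, 2074 upon repression and 547 upon overexpression. The FPKM was 11.2 in Sf9 (95% interval 10.6 to 11.8), 16.8 in ASO (16.1 to 17.6) and 4.86 in Sf-15 (4.46 to 5.29), so the 3 libraries were well apart. Its log2 ratios were 0.55 and -1.05. Without the added FPKM, the exact 95% interval of the log2 ratio was 0.49 to 0.69 for ASO to Sf9 and -1.35 to -1.06 for Sf-15 to Sf9. It was the only member among the 2877 eligible unigenes with a mean of 500 or more fragments over the libraries.

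Unigene5241 (2152 nt) had the highest log2 ratio of ASO to Sf9, at 1.15. It had 274 fragments in normal cells, 666 upon repression and 166 upon overexpression, or an FPKM of 6.50, 15.7 and 4.28. The ratio of Sf-15 to Sf9, -0.51, was by contrast just inside the limit. The larger step was thus on the side of repression, and it did not pass once the median ratio was set to 0. Unigene6413 (283 nt) was similar, with 52, 118 and 31 fragments and log2 ratios of 1.09 and -0.55. In this member the FPKM intervals of Sf9, 7.01 to 12.3, and of Sf-15, 4.13 to 8.63, overlapped.

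Unigene1302 (483 nt) and Unigene28545 (518 nt) also had high log2 ratios of ASO to Sf9, of 1.11 and 1.05. Upon repression they had 61 and 57 fragments, in normal cells 23 and 22, and upon overexpression 10 each. Both thus reached the fragment minimum in ASO alone, so the minimum and their high ratio of ASO to Sf9 are not independent. At this depth the ratio of Sf-15 to Sf9 is hardly fixed. Its exact 95% interval was -2.32 to 0.05 for Unigene1302 and -2.26 to 0.12 for Unigene28545, and both include 0. Unigene1315 (336 nt) had 56 fragments in normal cells, 116 upon repression and 30 upon overexpression, with log2 ratios of 0.96 and -0.67. Its interval for Sf-15 to Sf9, -1.47 to -0.12, lay below 0. It included -0.29, however, the median of this ratio over the eligible unigenes without added FPKM. Unigene1315 did not pass with the median ratio set to 0.

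Unigene1140 (524 nt) was the member with the fewest fragments in a library. These were 6 upon overexpression, against 24 in normal cells and 52 upon repression, and it was the only member with under 10 in any library. Its log2 ratios were 0.85 and -1.03. The interval of the latter without the added FPKM ran from -3.46 to -0.55, and was the widest of all members at 2.91.

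The lowest ratios of Sf-15 to Sf9, after Unigene16590, were found in 3 unigenes of similar length. Unigene7256 (413 nt) had 53, 75 and 17 fragments in Sf9, ASO and Sf-15, and log2 ratios of 0.43 and -1.20. Unigene21439 (417 nt) had 70, 104 and 26 fragments, with ratios of 0.51 and -1.10. Unigene15643 (419 nt) had 81, 117 and 31, with ratios of 0.48 and -1.09. In contrast to Unigene5241, the larger step in these members was on the side of overexpression. The interval of ASO to Sf9 was above 0 for Unigene21439 (0.11 to 1.02) and Unigene15643 (0.10 to 0.95), but included 0 for Unigene7256 (-0.04 to 1.02).

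**Figure D2:**
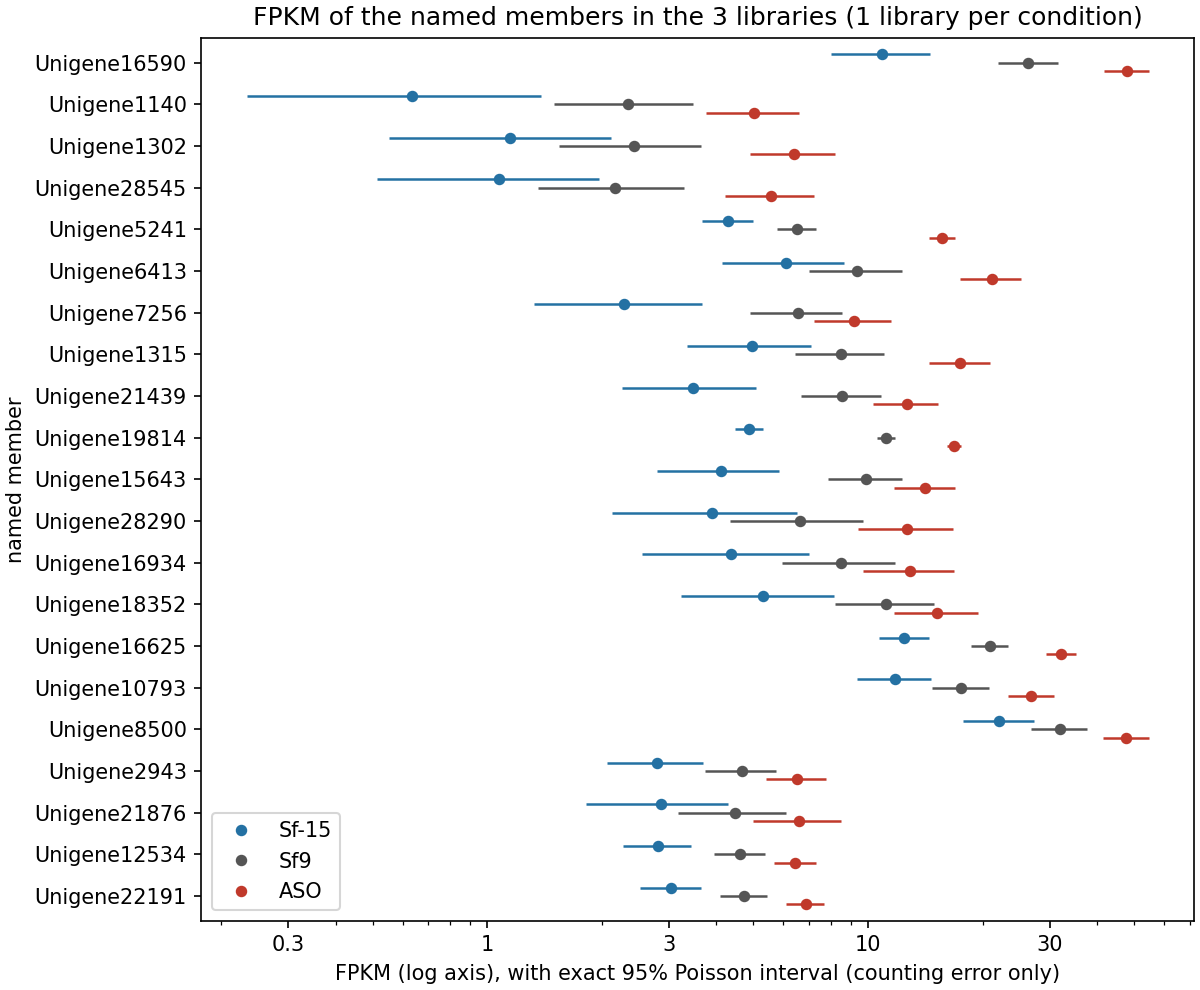
FPKM (log axis) of the 21 members named by rule, in the order of the difference between their ratios, in Sf-15 (blue), Sf9 (grey) and ASO (red). Points are the single library of each condition and lines the exact 95% Poisson interval from its fragments. Unigene19814 has narrow, separate intervals, while the intervals of Unigene1302 in Sf9 and Sf-15 overlap.

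The most abundant members by mean FPKM were Unigene8500, Unigene16590, Unigene16625 and Unigene10793. Unigene8500 (221 nt) had an FPKM of 31.9, 47.7 and 22.1 in Sf9, ASO and Sf-15, from 138, 208 and 88 fragments. Unigene16625 (761 nt) had 20.9, 32.1 and 12.5, from 311, 483 and 171 fragments. Unigene10793 (387 nt) had 17.5, 26.8 and 11.8, from 133, 205 and 82 fragments. Their log2 ratios were 0.57 and -0.51, 0.60 and -0.70, and 0.59 and -0.54, respectively. Of the most abundant 4, only Unigene16590 passed with the median ratio set to 0.

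The shortest members were Unigene28290 (200 nt), Unigene18352 (210 nt) and Unigene16934 (216 nt). Unigene28290 had 26 fragments in normal cells, 50 upon repression and 14 upon overexpression, so that it reached the fragment minimum exactly, and in ASO alone. Unigene18352 had 46, 63 and 20 fragments, and log2 ratios of 0.41 and -0.95. Unigene16934 had 36, 55 and 17, and ratios of 0.55 and -0.82. The latter pair passed with the median ratio set to 0, but the interval of ASO to Sf9 included 0 in both.

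Just inside the limit of 0.4 were Unigene2943 at 0.405 (89, 125 and 49 fragments in Sf9, ASO and Sf-15) and Unigene12534 at 0.409 (173, 244 and 97). Just outside it were Unigene6213 at 0.397 (37, 52 and 20) and Unigene12145 at 0.394 (61, 85 and 19). At the limit of -0.5, Unigene22191, of 2206 nt, at -0.5003 (204, 299 and 121 fragments) and Unigene21876 at -0.5005 (39, 58 and 23) were just inside. Unigene1165 at -0.4992 (44, 69 and 27) and Unigene14994 at -0.4985 (122, 213 and 76) were just outside. The members nearest the limits thus differed from the unigenes beyond them by far less than their counting error.

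The precision of all members was set by their fragments. Over the members, the median width of the exact 95% interval was 0.95 for the log2 ratio of ASO to Sf9 and 1.36 for that of Sf-15 to Sf9, wider than the median ratios themselves. The interval of ASO to Sf9 was above 0 for 69 members, against 26.5% of the eligible unigenes. That of Sf-15 to Sf9 was below 0 for 63 members, against 47.1%. Both held for 57 members, against 4.10%. The interval of Sf-15 to ASO was below 0 for all 84 members, against 41.0%. These shares are raised by the choice of the members on the same ratios.

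The common shift of the eligible unigenes is part of these values. Without the added FPKM, the median log2 ratio of Sf-15 to Sf9 over the eligible unigenes was -0.29. The whole interval lay below this value for 24 of the 84 members, or 28.6%, against 22.0% of the eligible unigenes. The share is near the background, and since the rule used the same ratio nothing is read from it.

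**Figure D3:**
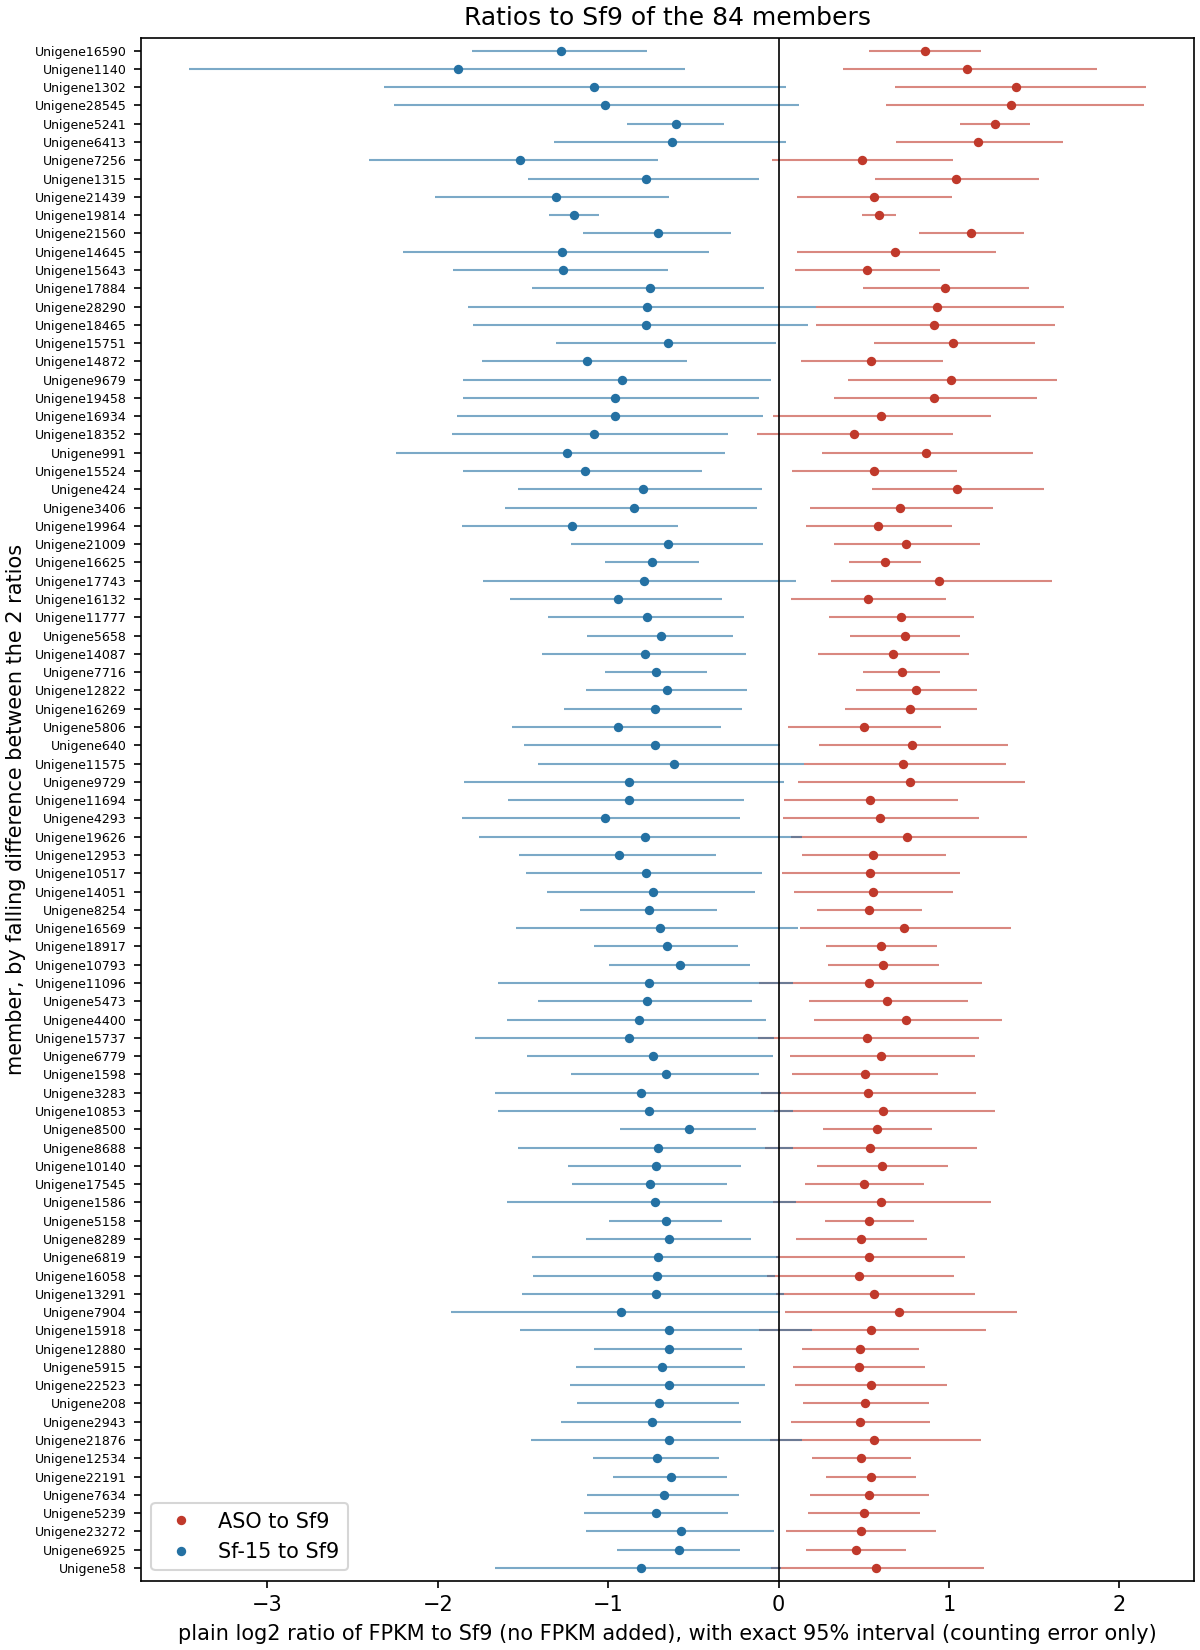
Log2 ratios of FPKM to Sf9, without added FPKM, of the 84 members for ASO (red) and Sf-15 (blue), ordered from the largest to the smallest difference between the ratios. Lines are exact 95% intervals from the fragments of each pair of libraries. The intervals of Sf-15 to Sf9 reach 0 or beyond for 21 members and those of ASO to Sf9 for 15.

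The limits on the ratios did not name length or depth. Length, depth and abundance are still not independent of the rule, because of the 1 FPKM added and the fragment minimum. The members had a median length of 543 nt, and the other eligible unigenes 838 nt. Only 23 of the 84 members were longer than the median eligible unigene, and 13 were of 1000 nt or more. The mean fragments over the 3 libraries had a median of 67.2 for the members and 144.3 for the others. Mean FPKM was also lower, with medians of 6.42 and 9.78. The members were therefore shorter, less abundant and less deeply covered than the unigenes they were drawn from.

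The share of eligible unigenes that met the rule decreased with depth. It was 1.84% (33 of 1794) at a mean under 50 fragments, 0.808% (29 of 3588) from 50 to under 100, and 0.578% (16 of 2767) from 100 to under 200. It was 0.177% (5 of 2832) from 200 to under 500 and 0.0348% (1 of 2877) at 500 or more. A similar order was seen with length, from 1.51% (13 of 862) under 300 nt to 0.152% (3 of 1977) at 2000 nt or more. A unigene with a mean under 50 was eligible only if its libraries differed, and all 33 members there reached 50 fragments in ASO. The fragment minimum thus preselects the lowest tier for such a difference, and nothing is read from the share of that tier. Counting error also decreases with fragments. Its part in the number of members was not tested.

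**Figure D4:**
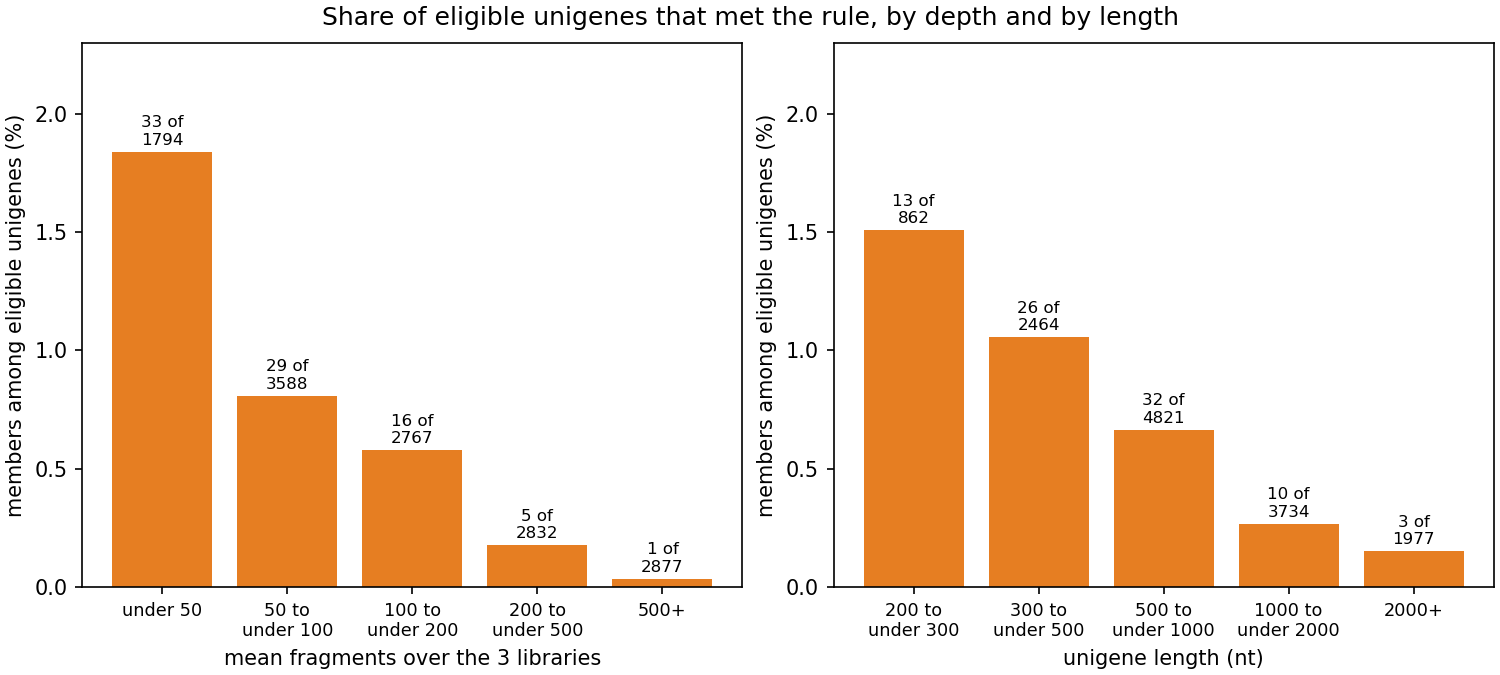
Percentage of eligible unigenes that were members (y axis, from 0), by mean fragments over the 3 libraries (left) and by unigene length (right). The numbers above the bars are members and eligible unigenes. The share was 1.84% in the shallowest tier and 0.0348% in the deepest. Unigenes of the shallowest tier could pass the fragment minimum only with unequal libraries, so its share is raised by that choice.

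All 84 members had at least 50 fragments in ASO, the library where they were highest by rule. In Sf9, 51 reached 50 fragments, and in Sf-15, 24. The remaining 33 passed the minimum through ASO alone, so for them the choice of the minimum and the direction are not independent. A further 350 unigenes met both ratio limits and the FPKM limit but had fewer than 50 fragments in each library. The FPKM limit by itself excluded no unigene that met the rest of the rule, since 0 of the 837 unigenes with an FPKM of 100 or more in Sf9 and 50 fragments did so.

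Of the contigs of the CL clusters, 13 of 5584 met the same limits, or 0.233%, against 0.606% of the unigenes outside clusters. This difference was not tested. No members were adjacent in assembly number (0 pairs), and none shared its fragments in all 3 libraries with another (0 members). With so few members among 30921 Unigene names an adjacent pair would be rare, and nothing is read from these counts. The assembly numbers of the members ranged from 58 to 28545.

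Apoptosis is the route by which a cell dismantles itself through caspases. A list of unigenes assigned to this pathway was taken from the study, which chose it on these same libraries. The paper describes the listed genes as raised upon Sf-15 repression, with the reverse pattern upon overexpression. The directions of their ratios are therefore set by that choice. The list held 21 names. Eligible here were 14 of them, 6 others were CL contigs, and Unigene6917 had too few fragments, with 26, 36 and 14 in Sf9, ASO and Sf-15. Past the limit for ASO to Sf9 were 5 of the 14, against 21% of the eligible unigenes, and past the limit for Sf-15 to Sf9 were 0, against 25.1%. None was a member (0 of 14), and with 0.606% of the eligible unigenes meeting the rule this is no result about the list. Over the 14, the ratio of ASO to Sf9 ranged from 0.11 (Unigene18734) to 0.99 (Unigene15078), and that of Sf-15 to Sf9 from -0.33 (Unigene17709) to -0.0029 (Unigene113). Their medians were 0.34 and -0.20, against -0.05 and -0.26 over the eligible unigenes. Because the study chose the list by direction, nothing is read from these medians or from the 5 past the limit for ASO. Unigene17709 had 293, 383 and 208 fragments. Unigene15078, with the highest ratio of ASO to Sf9 among the 14, stood at -0.26 for Sf-15 to Sf9.

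How far the members depended on scaling was followed in each of them. With edgeR's TMM scaling, which aligns the libraries on unigenes that change little, 17 unigenes met the rule, and all 17 were members. With median-of-ratios scaling 18 did, all of them members. When cluster CL1590 and Unigene21105, which had 0.0806% of the Sf9 fragments and 1.37% of those of ASO, were left out of the totals, 30 unigenes met the rule, of which 16 were members. This raised every ratio to Sf9, before FPKM is added, by 0.20 for ASO and by 0.33 for Sf-15. These shifts are smaller than the limits of the rule, so none of these settings could turn the direction of a member.

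**Figure D5:**
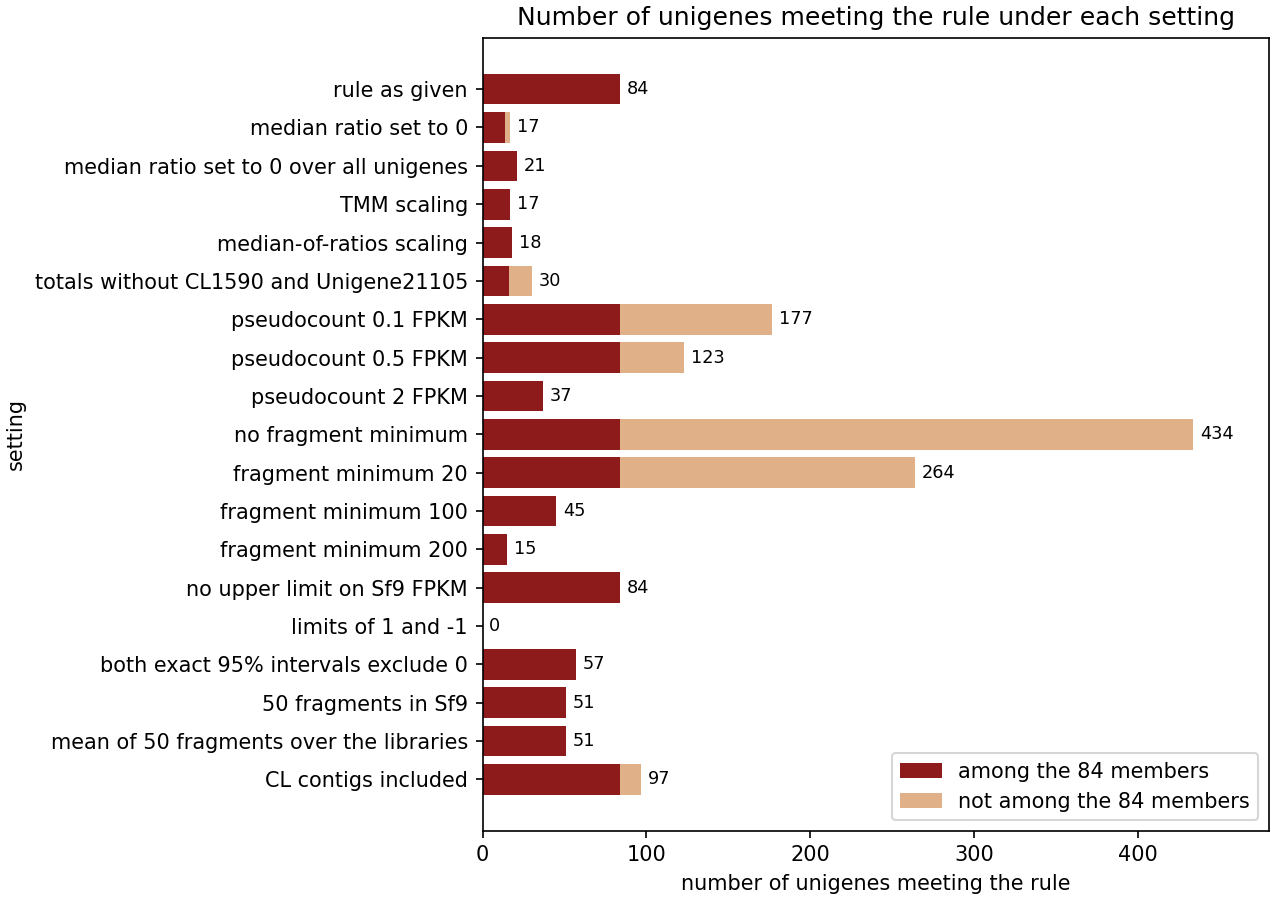
Number of unigenes that met the rule under each setting (x axis, from 0). Dark red is the part that belongs to the 84 members and light brown the part that does not. Settings that rescale the libraries keep 14 to 21 of the members, and a lower fragment minimum adds unigenes, up to 434 without one.

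A total of 11 members met both limits under all 4 of these rescalings. They were Unigene16590, Unigene1140, Unigene21439, Unigene19814, Unigene14645, Unigene15643, Unigene14872, Unigene16934, Unigene15524, Unigene19964 and Unigene16132. For 10 of the 11 both exact 95% intervals excluded 0, against 57 of all 84 members and 4.10% of the eligible unigenes. The exception was Unigene16934, where the interval of ASO to Sf9 was -0.03 to 1.25. Passing stricter limits favours intervals that exclude 0, so the count of 10 describes the choice. Unigene1140, Unigene14645 and Unigene16934 reached the fragment minimum in ASO alone.

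Those of the 11 not yet described had between 402 and 1163 nt. Unigene19964, the longest of them, had 78 fragments in normal cells, 118 upon repression and 31 upon overexpression, and log2 ratios of 0.47 and -0.84. Unigene14872 (620 nt) had 83, 122 and 35 fragments and ratios of 0.49 and -0.92. Unigene15524 (617 nt) had 62, 92 and 26, with 0.48 and -0.88. Unigene14645 (402 nt) had 42, 68 and 16 fragments and ratios of 0.59 and -0.98, and Unigene16132 (418 nt) had 71, 103 and 34 and ratios of 0.48 and -0.81. The members with the highest log2 ratios of ASO to Sf9 (Unigene5241, Unigene1302, Unigene6413 and Unigene28545) were not among the 11.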

How the data were processed

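The authors sequenced total RNA of Sf9 cells under 3 conditions (Sf9, ASO, Sf-15; 1 library each) with Illumina chemistry and assembled unigenes with Trinity, TGICL and Phrap. Which aligner and counter they used is not given in the sources used here. The 3 deposited tables, 1 per pair of libraries, give unigene length, raw fragment counts without normalization, and the authors' FPKM. Their columns of log2 ratios, direction, p-values and false discovery rates hold the authors' own comparisons and were not used. Tables were joined by unigene name, with unlisted unigenes taken as 0, and 0 values differed between tables. FPKM recomputed from the fragments was within 0.0001 of the deposited FPKM.

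Ratios are log2((FPKM + 1)/(FPKM + 1)) of the deposited values. Intervals are exact (Clopper-Pearson) 95% intervals of the ratio of fragments without added FPKM. With 1 library per condition and members chosen on the ratios, no test was made. The script was tested on simulated data. The changes put in there were larger, and in more deeply covered unigenes, than those of most members. That test therefore does not show how the rule performs on members like these. Members and lists were chosen with earlier results of these data known.

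Named by rule were members with the 8 largest differences between the ratios, the 4 highest ratios of ASO to Sf9, the 4 lowest of Sf-15 to Sf9, the 4 highest mean FPKM, the 3 longest and 3 shortest, the 2 nearest each side of each limit, and the 4 largest differences among those also passing with the median ratio set to 0. The rule also took members on the apoptosis list, of which there were 0. Any unigene named outside this rule was chosen once its values had been seen. No unigene sequences were used here. TMM factors came from edgeR 4.0.16 in R 4.3.3. The other steps ran in Python 3.11.15 (pandas 2.3.3, scipy 1.17.1, numpy 2.4.6), and matplotlib 3.10.9 drew the plots. Alternatives in scaling, added FPKM, fragment minimum and limits are given in the closing section.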

Additional observations from a re-analysis of the deposited data

How the results depend on the processing

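The number of members, 84, was moved by more than 1.5 times by most alternatives. It was 17 with the median ratio set to 0 over the eligible unigenes, 21 over all unigenes, 17 with TMM scaling, 18 with median-of-ratios scaling and 30 with totals without CL1590 and Unigene21105. Adding 0.1 FPKM gave 177 and adding 2 FPKM gave 37. No fragment minimum gave 434, a minimum of 20 gave 264, of 100 gave 45 and of 200 gave 15. Limits of 1 and -1 gave 0. A minimum of 50 fragments in Sf9, or of 50 in the mean, both chosen after seeing the data, gave 51 each. The count stayed within 1.5 times with 0.5 FPKM, without the FPKM limit, with intervals excluding 0 and with CL contigs. With the members held fixed, the median ratio of ASO to Sf9 (0.51) was 0.48 with TMM, 0.47 with median-of-ratios scaling, 0.69 with the reduced totals, 0.59 with 0.1 FPKM and 0.45 with 2 FPKM. That of Sf-15 to Sf9 (-0.59) was -0.33 with the median set to 0, -0.39 with TMM, -0.40 with median-of-ratios scaling, -0.33 with the reduced totals, -0.74 with 0.1 FPKM and -0.51 with 2 FPKM. Of 150 recomputed ratios of 25 named unigenes, 2 moved by more than their counting error, both of Sf-15 to Sf9 in Unigene19814 (-1.05), which was -0.84 with TMM and -0.79 with the median set to 0. A rescaling moves all ratios of a comparison in the same direction, so whether a move exceeds the counting error depends largely on fragments. The count is therefore no measure of how stable the ratios are. No paired analysis was possible because there was only 1 library per condition, and none could be left out. The causes of these shifts were not tested.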
